A study of Homo sapiens with 26 samples.

Results

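HOX genes are described here in 26 clonal lines grown from single cells (SCDCLs) of the pancreatic cancer lines BxPC3 and Panc-1. The members are the 39 genes whose Ensembl identifier maps to a protein-coding symbol of the HOXA, HOXB, HOXC or HOXD cluster followed by a number, out of 41078 genes in the table. All 39 had a row: 11 in HOXA, 10 in HOXB, 9 in HOXC and 9 in HOXD. The rule that picks members used no measured value, but members were chosen with earlier results of these data known.

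Both lines were established from human pancreatic ductal adenocarcinoma, and each SCDCL was grown from 1 cell of a parental line by limiting dilution. The table holds 1 polyadenylated RNA library per SCDCL, 12 labelled BxPC3 and 14 labelled Panc1, and every library stands for 1 clone without a repeat library. The labels name gemcitabine, a nucleoside analog, as the treatment of each library, while the methods use it only in separate viability assays, and the response of each SCDCL to it was not analysed here. Library totals lay between 27035724 and 34945608 estimated counts, with a median of 29623513.

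HOX genes encode homeodomain transcription factors that give cells of the embryo their position along the head to tail axis. In humans they lie in 4 clusters on separate chromosomes, numbered by paralog group from 1 to 13, and genes of low number are switched on earlier and nearer the head than genes of high number. Their products bind DNA together with TALE homeodomain proteins of the PBX and MEIS families, Polycomb proteins keep the clusters silent, trithorax proteins keep them active, and retinoic acid induces genes of low number. Adult cells and tumor lines often keep part of such a positional pattern.

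The level of SMAD4, which encodes the shared partner of the TGF-beta SMAD proteins, went against the labels. BxPC3 carries a deletion of SMAD4 and Panc-1 does not, yet SMAD4 was at 0 to 0.0440 TPM (transcript abundance scaled by length and by the total of the library) in 12 libraries, 5 labelled BxPC3 and 7 labelled Panc1. It lay between 28.1 and 52.2 TPM in the other 14 libraries, 7 of each label. No library was moved to another label, and each is called by its label and number. In what follows, SMAD4-low names the 12 libraries under 1 TPM (1 to 7 labelled Panc1; 16, 21, 24, 25 and 26 labelled BxPC3) and SMAD4-positive names the 14 others. Since these sets come from a measured value and not from the design, their levels are described without a test between them.

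Other genes that mark the lines moved with the same sets. VIM, the intermediate filament of mesenchymal cells, lay between 1.42 and 73.2 TPM in SMAD4-low libraries and between 3047 and 4526 TPM in SMAD4-positive ones. CDH1, the E-cadherin of epithelial junctions, lay between 90.8 and 198 TPM against 0.338 to 7.74 TPM, and the epithelial surface gene EPCAM between 239 and 424 TPM against 7.49 to 25.5 TPM. The epithelial keratin genes KRT8, KRT18 and KRT19 overlapped between the sets. KRT8 and KRT18 had higher medians in SMAD4-positive libraries (2053 and 1598 TPM, against 461 and 521 TPM). KRT19 had a lower median there (1220 TPM, against 1966 TPM). CDKN2A, deleted in both lines, was listed at 0 in every library. The summed level of 5 fibroblast markers was 9.78 to 28.3 TPM in SMAD4-low and 2.11 to 39.0 TPM in SMAD4-positive libraries. Most of it was COL1A1, at 8.92 to 26.5 TPM and 2.06 to 38.5 TPM, while LUM was at no more than 0.243 TPM. That of 4 leukocyte markers was 0.431 to 30.2 TPM against 0.0314 to 3.54 TPM, of which CD14 alone reached 29.1 TPM, while PTPRC stayed at or under 0.535 TPM. CDH5, of vascular junctions, lay between 1.04 and 13.6 TPM in SMAD4-low libraries, and the summed level of 3 endothelial markers was 3.16 to 16.97 TPM against 0.321 to 5.39 TPM. The part of these markers in the HOX levels was not tested, and in bulk RNA fewer expressing cells and less RNA per cell cannot be told apart.

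The clusters were located in the GENCODE 44 annotation of GRCh38. HOXA2 to HOXA13 span chr7:27100354-27200091 on the minus strand, and HOXB spans chr17:48528526-48728750 on the minus strand, from HOXB1 to HOXB13. HOXC spans chr12:53938831-54056030 on the plus strand, from HOXC13 to HOXC4, and HOXD spans chr2:176092721-176190907 on the plus strand, from HOXD13 to HOXD1.

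The 250 bases before the transcription start are shown for HOXA6, HOXA9, HOXA10 and HOXD11. HOXA9 and HOXA10 were higher in SMAD4-low libraries, and HOXD11 was the HOXD gene with the highest level. HOXA6 had overlapping levels. The window of HOXA7, a gene between HOXA6 and HOXA9, overlaps an exon of its own strand and is not shown. Sequences are RefSeq windows of GRCh38.p14, in which 20 of the 39 members have an entry. Capitals mark 3 short motifs on either strand, the TATA box letters TATAAA (reverse TTTATA), the letters CCAAT (reverse ATTGG) and the Sp1 type letters GGGCGG (reverse CCGCCC), and overlapping matches are joined. Each window shown lies inside the longest GENCODE span of its gene and overlaps no exon of its own strand.
HOXA6, chr7:27147775-27148024, minus strand: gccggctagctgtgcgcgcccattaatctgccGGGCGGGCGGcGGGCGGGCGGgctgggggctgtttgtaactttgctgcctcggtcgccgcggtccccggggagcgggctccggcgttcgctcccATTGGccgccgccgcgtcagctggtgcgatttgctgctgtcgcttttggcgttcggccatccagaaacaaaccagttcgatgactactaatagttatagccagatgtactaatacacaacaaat
HOXA9, chr7:27165538-27165787, minus strand: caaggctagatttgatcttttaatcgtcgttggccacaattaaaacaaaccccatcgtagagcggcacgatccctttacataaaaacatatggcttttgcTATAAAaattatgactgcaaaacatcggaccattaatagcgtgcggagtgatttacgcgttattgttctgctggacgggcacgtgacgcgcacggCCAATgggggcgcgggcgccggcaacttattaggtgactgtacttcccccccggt
HOXA10, chr7:27174321-27174570, minus strand: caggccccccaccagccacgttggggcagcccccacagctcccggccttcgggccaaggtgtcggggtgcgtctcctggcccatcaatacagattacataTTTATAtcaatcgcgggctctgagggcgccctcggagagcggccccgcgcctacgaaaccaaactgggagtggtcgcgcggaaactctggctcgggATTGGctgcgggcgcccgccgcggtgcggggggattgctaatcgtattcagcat
HOXD11, chr2:176107030-176107279, plus strand: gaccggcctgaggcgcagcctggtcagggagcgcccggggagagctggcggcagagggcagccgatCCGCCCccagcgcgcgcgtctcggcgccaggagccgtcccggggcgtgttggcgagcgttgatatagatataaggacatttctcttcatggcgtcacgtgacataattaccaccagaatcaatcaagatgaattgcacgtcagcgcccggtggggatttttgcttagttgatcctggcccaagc

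These windows are rich in CpG, with 27 CpG in that of HOXA6, 20 in HOXA9, 24 in HOXA10 and 23 in HOXD11. Over 27 windows of the 20 members the median was 19 CpG, against 11 over 35116 windows of all genes. Of HOXB and HOXC only HOXB1, HOXC4 and HOXC5 have a window. HOXC4 and HOXC5 have the same window, counted for each, and HOXA3 has several. The HOX values therefore describe mostly HOXA and HOXD. CCAAT occurred in 66.7% of the HOX windows and in 32.0% of all windows, TATAAA in 18.5% and 10.7%, and GGGCGG in 48.1% and 42.6%. HOXA9 and HOXA10, next to each other and both high in SMAD4-low libraries, each hold TATAAA and CCAAT in capitals above, whereas the HOXA6 window holds GGGCGG and CCAAT and that of HOXD11 holds GGGCGG alone. Such matches describe the letters of the windows and are not binding sites measured here.

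SMAD4-positive libraries held about 4 times the HOX RNA of SMAD4-low libraries, and the excess lay in HOXB and HOXC. Summed over the 39 members, the level was 183 to 331 TPM (median 250) in SMAD4-low and 668 to 1260 TPM (median 981) in SMAD4-positive libraries, without overlap. HOXC had the largest ratio of medians, at 18.8 to 33.4 TPM (median 24.8) against 239 to 439 TPM (median 346). HOXB had 124 to 256 TPM (median 165) against 349 to 855 TPM (median 598), and was the largest cluster in every library. HOXA went the other way, with 37.4 to 101 TPM (median 50.6) against 15.5 to 38.9 TPM (median 27.4), and here the sets overlapped narrowly. HOXD stayed under 4 TPM throughout.

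As a share of the summed HOX level, HOXA held a median of 22.01% ± 5.92 (SD, n = 12) in SMAD4-low and 3.08% ± 0.762 (SD, n = 14) in SMAD4-positive libraries. HOXC held 10.4% ± 1.46 and 34.2% ± 6.03, and HOXB 66.2% ± 6.58 and 62.5% ± 6.46, so that HOXB took a similar share at different totals. HOXD held 0.896% and 0.0356%, and the latter moved between 0.0216% and 0.0496% with any 1 library left out, to 0.0216% without library 8, 9, 10, 14, 17, 19 or 22.

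**Figure D1:**
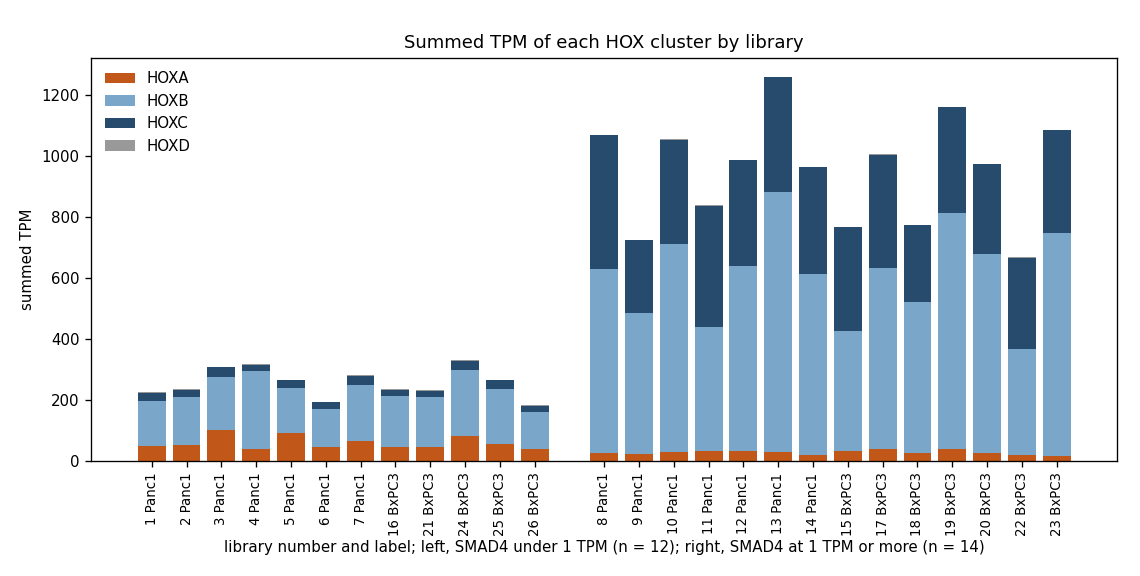
Stacked bars give the summed TPM of HOXA, HOXB, HOXC and HOXD in each library, named by number and label, SMAD4-low at left and SMAD4-positive at right. Every bar at right is taller than every bar at left, from 668 to 1260 TPM against 183 to 331 TPM, and the HOXC part is under 34 TPM at left.

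A member was called detected where its median in a set was at least 1 TPM. By this limit 19 members were detected in SMAD4-low and 22 in SMAD4-positive libraries, 16 in both and 14 in neither. Over all 26 libraries 27 members reached 1 TPM in at least 1 library. Of these, 15 were higher in every SMAD4-positive than in every SMAD4-low library (13.3% of all 18663 genes reaching 1 TPM did so), and 4 were lower in all of them (13.2% of all genes). In both directions together, 26.6% of all genes and 29.7% of protein-coding genes had ranges that did not overlap. Among libraries labelled BxPC3 alone 16 members were higher (18% of all genes) and 5 lower (19.2%) in SMAD4-positive libraries, and among those labelled Panc1 15 were higher (19%) and 4 lower (18.4%). The median difference of the 27 members, SMAD4-positive minus SMAD4-low, was 1.77 on the log2(TPM + 1) scale, and over all genes reaching 1 TPM it was 0. By cluster, the 27 were 8 HOXA, 9 HOXB, 8 HOXC and 2 HOXD genes.

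**Figure D2:**
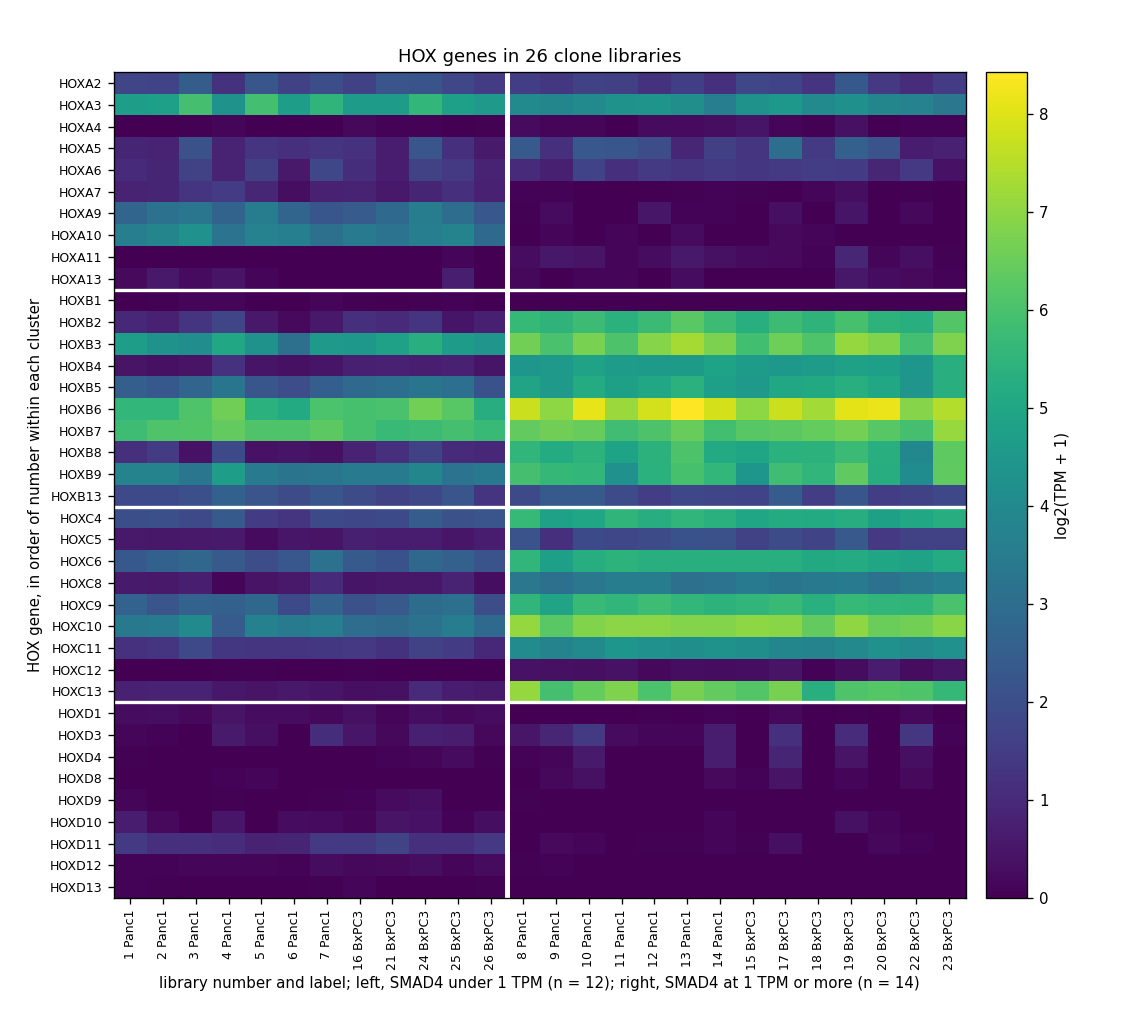
Color gives log2(TPM + 1) of 38 HOX genes (rows, by number within each cluster) in the 26 libraries (columns, by number and label). White lines part the clusters and the 12 SMAD4-low (left) from the 14 SMAD4-positive libraries (right). HOXA9 and HOXA10 are bright at left only, HOXB2, HOXB4, HOXB8 and HOXC13 at right only, and columns of both labels occur on each side.

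The order along HOXA was broken by genes of low level in both sets. HOXA3, of the group that patterns the pharyngeal arches, was the highest HOXA gene. HOXA4, which lies inside the annotated span of HOXA3, stayed at or under 0.384 TPM in all 26 libraries. In SMAD4-low libraries a second block followed at HOXA9 and HOXA10, while HOXA11 and HOXA13 were at or under 0.647 TPM. In SMAD4-positive libraries no HOXA gene above HOXA6 reached 1 TPM.

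HOXA10 (ENSG00000253293), a gene of the posterior body and the uterus, had 6.28, 11.1 and 18.3 TPM as the lowest, median and highest SMAD4-low library. In SMAD4-positive libraries it had 0, 0 and 0.196 TPM, at no more than 6.25 estimated counts in a library. The highest value was that of library 3 and the lowest that of library 26, and the lowest was still 32.0 times the highest SMAD4-positive value.

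HOXA9 (ENSG00000078399), known from leukemias in which it is overexpressed, had 3.82, 5.996 and 10.9 TPM in SMAD4-low libraries. It had 0, 0.0401 and 0.409 TPM in SMAD4-positive ones, so that the sets were apart by 9.34 times at their nearest libraries. HOXA7, of the same block, was low in both sets, at 0.232 to 1.82 TPM against 0 to 0.231 TPM. Its sets touched, since the nearest libraries differed by a factor of 1.00, or 2.15 without library 6 and 3.07 without library 19, and they overlapped once 30 repeated estimates of each library were taken into account.

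HOXA3 (ENSG00000105997) had 19.3, 25.6 and 60.8 TPM in SMAD4-low and 9.15, 15.4 and 21.4 TPM in SMAD4-positive libraries, and the ranges overlapped because of library 4. Within SMAD4-low libraries the values lay in separate stretches: libraries 3, 5, 7 and 24 had 44.7 to 60.8 TPM and the remaining 8 had 19.3 to 26.2 TPM. The gap was larger than counting error, which for the median SMAD4-low library gave HOXA3 a coefficient of variation (CV) of 3.51%, taken as the inverse square root of its estimated count. HOXA2, HOXA5 and HOXA6 were between 0.321 and 6.96 TPM in all libraries and overlapped. HOXA5 varied most among SMAD4-positive libraries, from 0.547 TPM in library 22 to 6.96 TPM in library 17.

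**Figure D3:**
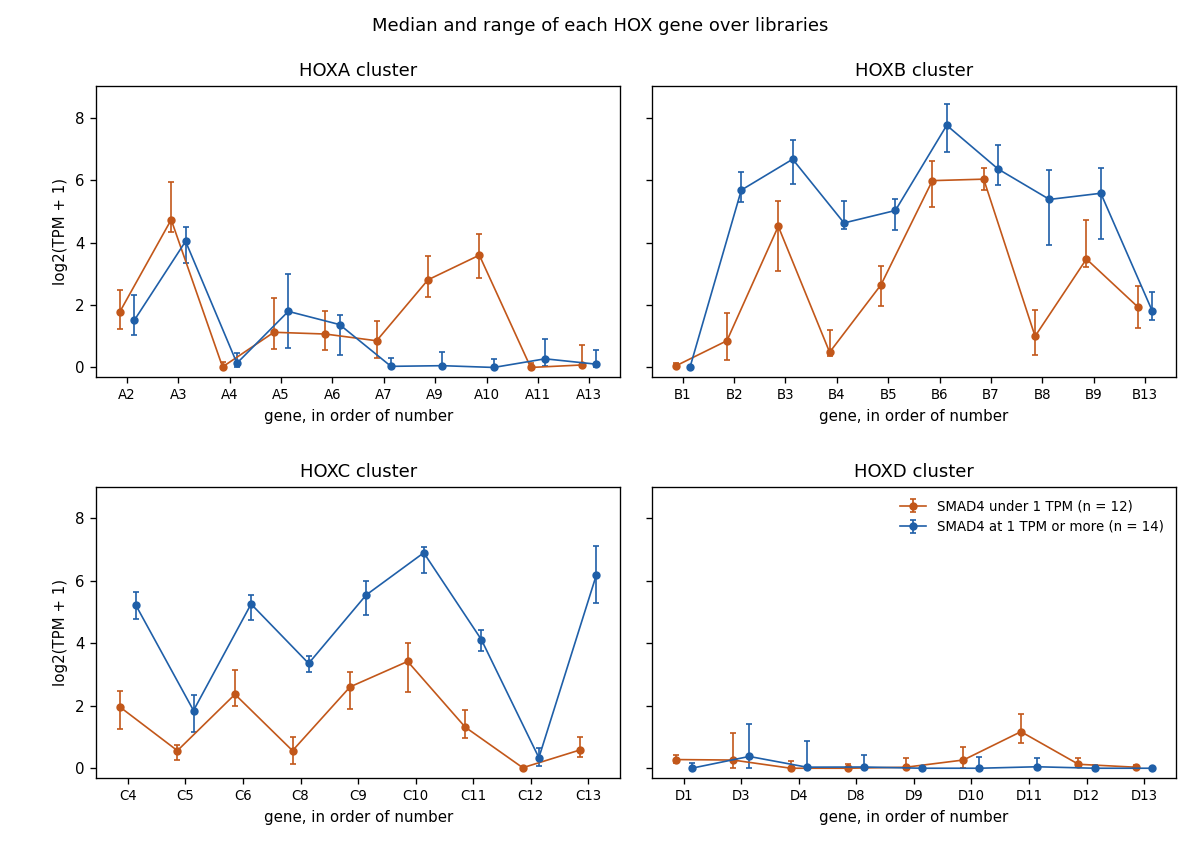
Points give the median and bars the lowest and highest library of log2(TPM + 1) for 38 HOX genes along each cluster, for the 12 SMAD4-low (orange) and the 14 SMAD4-positive libraries (blue). HOXA9 and HOXA10 are higher in orange, and the sets run apart in HOXC, while HOXB meets at HOXB7 and HOXB13.

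In HOXB, the sets differed most at HOXB2, HOXB4 and HOXB8. SMAD4-positive libraries had all 8 genes from HOXB2 to HOXB9 at 14.3 TPM or more. SMAD4-low libraries had HOXB3, HOXB5, HOXB6, HOXB7 and HOXB9 at 2.95 TPM or more. There HOXB2, HOXB4 and HOXB8 had medians under 1 TPM, each next by number to an expressed gene. By annotated span HOXB4 lies inside HOXB3 and HOXB8 inside HOXB7, so these are not separate neighbours. HOXB1 was at or under 0.09998 TPM in all libraries.

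HOXB2 (ENSG00000173917), a hindbrain gene, had 0.167, 0.810 and 2.37 TPM in SMAD4-low and 38.5, 50.2 and 75.6 TPM in SMAD4-positive libraries. The medians differed 62.0-fold, from 5.05 to 60.7 estimated counts a library in the first. HOXB4 (ENSG00000182742), known for expanding hematopoietic stem cells, had 0.297, 0.402 and 1.31 TPM against 20.5, 23.7 and 39.0 TPM, a 59.0-fold difference of medians. HOXB8 (ENSG00000120068), which holds myeloid progenitors immature when overexpressed, had 0.307, 0.997 and 2.61 TPM against 14.3, 40.7 and 79.6 TPM, or 40.8-fold. Library 4 was the highest SMAD4-low library for each. The nearest libraries differed 5.48-fold for HOXB8, or 10.9-fold without library 22, 16.2-fold for HOXB2, or 27.1-fold without library 4, and 15.7-fold for HOXB4, or 29.1-fold without library 4.

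The remaining HOXB genes were expressed in both sets. HOXB6 (ENSG00000108511) had the highest median of all members in SMAD4-positive libraries, with 118, 215 and 342 TPM against 34.6, 62.2 and 97.2 TPM. HOXB3 (ENSG00000120093) had 58.0, 101 and 156 TPM against 7.55, 21.9 and 38.9 TPM, and HOXB5 (ENSG00000120075) 20.1, 31.6 and 41.0 TPM against 2.95, 5.26 and 8.602 TPM. These 3 did not overlap, but their medians differed only 3.45-fold to 6.01-fold.

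HOXB7 (ENSG00000260027), often raised in carcinomas, was the member at the closest levels among those abundant in both sets. It had 50.7, 64.3 and 82.4 TPM in SMAD4-low and 56.7, 80.8 and 139 TPM in SMAD4-positive libraries, and the ranges overlapped. In SMAD4-low libraries it had the highest median, with HOXB6 close to it and above it in libraries 4, 21, 24 and 25, while its neighbour HOXB8 was near 1 TPM. HOXB9 (ENSG00000170689) had 8.20, 10.1 and 25.4 TPM against 16.2, 46.8 and 82.0 TPM, and overlapped only through library 4, at 25.4 TPM, since every other SMAD4-low library was at or under 13.4 TPM. HOXB13, the prostate and hindgut gene set apart from the rest of the cluster, lay between 1.41 and 5.15 TPM in all libraries, with overlap.

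**Figure D4:**
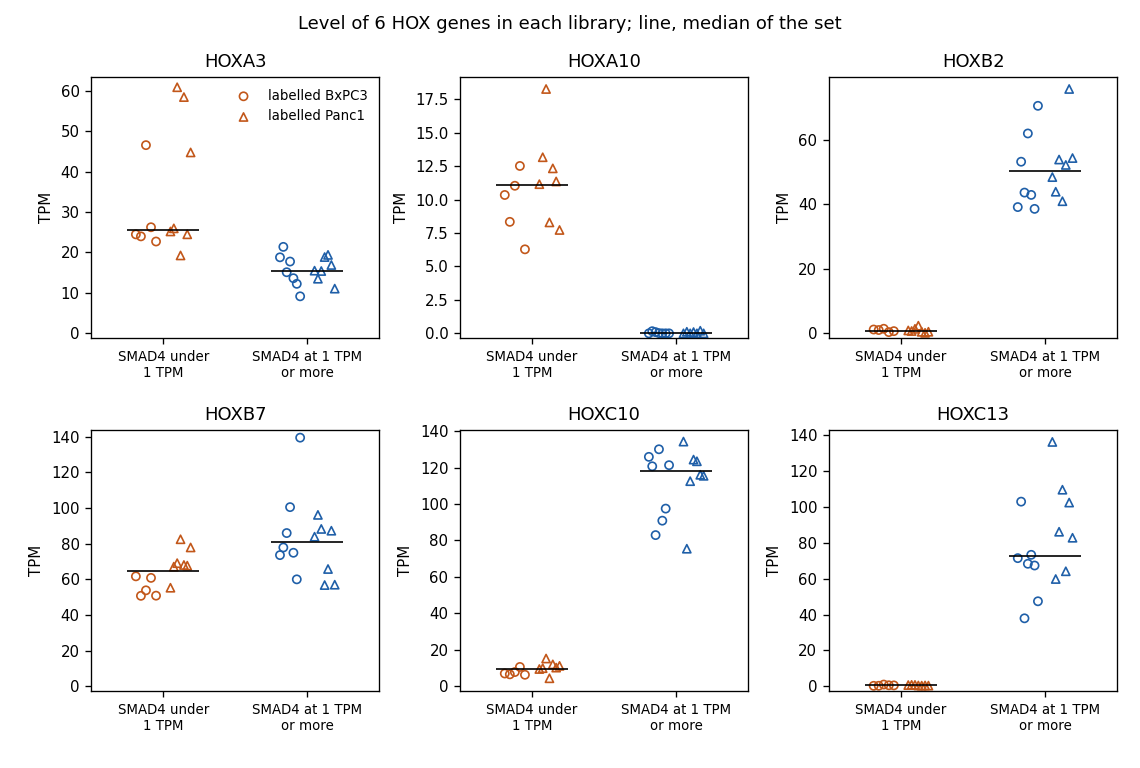
Each panel gives TPM of 1 HOX gene in each library, circles for the label BxPC3 and triangles for Panc1, SMAD4-low at left and SMAD4-positive at right, with a line at the median of the set. HOXA10 is near 0 at right and HOXB2, HOXC10 and HOXC13 are low at left, while HOXB7 overlaps and HOXA3 shows 4 SMAD4-low libraries above 44 TPM.

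All 8 HOXC genes that reached 1 TPM were higher in every SMAD4-positive than in every SMAD4-low library. HOXC10 (ENSG00000180818), a gene of the hindlimb and lumbar region, was the highest, with 75.5, 118 and 134 TPM against 4.40, 9.71 and 15.2 TPM. HOXC13 (ENSG00000123364), needed for hair and nails, had the largest fold difference of medians among the HOXC genes. Its levels were 37.9, 72.4 and 136 TPM against 0.278, 0.504 and 0.986 TPM, or 12.8 to 49.1 estimated counts in SMAD4-low libraries. The medians differed 144-fold and the nearest libraries 38.5-fold.

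HOXC9 (ENSG00000180806), of the thoracic region, had 29.1, 45.8 and 63.3 TPM against 2.74, 5.09 and 7.52 TPM. HOXC6 (ENSG00000197757) had 25.8, 37.3 and 45.3 TPM against 3.01, 4.16 and 7.82 TPM, and HOXC4 (ENSG00000198353) 26.6, 36.2 and 49.1 TPM against 1.40, 2.90 and 4.52 TPM. HOXC11 (ENSG00000123388) had 12.6, 16.4 and 20.7 TPM against 0.956, 1.49 and 2.63 TPM. The medians of these 4 genes differed between 8.96-fold and 12.5-fold, and each was present in both sets.

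HOXC8 (ENSG00000037965) had 7.55, 9.24 and 11.1 TPM against 0.105, 0.476 and 1.01 TPM, the narrowest range among SMAD4-positive libraries. HOXC5 (ENSG00000172789) was low, with 1.26, 2.60 and 4.05 TPM against 0.189, 0.477 and 0.660 TPM, and overlapped with the repeated estimates. HOXC12, which lies between HOXC13 and HOXC11, stayed at or under 0.572 TPM in every library. As medians of SMAD4-positive libraries, the level thus went from 72.4 TPM at HOXC13 to 0.263 TPM at HOXC12 and back to 16.4 TPM at HOXC11.

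HOXD was low in both sets. HOXD11 (ENSG00000128713), of the limb and kidney, had 0.751, 1.25 and 2.30 TPM in SMAD4-low and 0, 0.0331 and 0.263 TPM in SMAD4-positive libraries, without overlap. The nearest libraries differed 2.86-fold, or 4.53-fold without library 17. HOXD3 reached 1.17 and 1.68 TPM and overlapped, and the other 7 HOXD genes never reached 1 TPM.

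Summed over the clusters, paralog groups 3, 6, 7, 9 and 10 kept 12.9 TPM or more in every library, while group 12 never passed 0.572 TPM. Members of 1 group often differed in direction: of group 10, HOXA10 was higher in SMAD4-low and HOXC10 in SMAD4-positive libraries. The group 10 sum was 12.9 to 33.5 TPM against 75.6 to 134 TPM. Group 7, carried by HOXB7, had 51.2 to 84.2 TPM against 56.7 to 139 TPM. Group 13 had 1.97 to 5.96 TPM, mostly HOXB13, in SMAD4-low libraries and 39.9 to 139 TPM, mostly HOXC13, in SMAD4-positive ones.

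Some members share sequence with other genes, which could move reads between them. Of the 31-base stretches of HOXC5 transcripts, 66.8% also occur in a readthrough transcript, ENSG00000273046, that has no row used here, and for HOXA4 the share was 30.2% with ENSG00000273433. HOXB6 shares 15.4% with HOXB3, and HOXC4 shares 16.6% with HOXC6. HOXD11 shares 20.5% with HOXD10. HOXA9 and HOXA10 share 12.02% and 9.07% with the readthrough gene ENSG00000257184, which was at 0 TPM in all SMAD4-low libraries and at most 0.190 TPM in SMAD4-positive ones. HOXC10 shares 5.91% with ENSG00000273049, at a median of 2.28 TPM in SMAD4-positive libraries. On the opposite strand, 62.2% of the stretches of HOXA7 and 35.03% of those of HOXA6 occur in HOXA-AS3, and 11.8% of HOXA9 and 15.6% of HOXA10 in HOXA10-AS, and since the strand setting of the counting is not given, reads of these pairs cannot be told apart. Levels of HOXA4, HOXA6, HOXA7 and HOXC5 are therefore uncertain. Antisense and other noncoding RNAs of the clusters were not analysed here.

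The comparison given by the labels, Panc1 against BxPC3, takes each library under its label. Each label holds both SMAD4 sets: BxPC3 has 5 SMAD4-low and 7 SMAD4-positive libraries, and Panc1 has 7 and 7. This comparison therefore cannot show whether SCDCLs of the lines differ in HOX genes. No HOX gene was called among 27 tested by edgeR's quasi-likelihood test (adjusted p under 0.05), and no gene at all was called among 16008 (0%). At an unadjusted p under 0.05 there were 0 HOX genes and 367 genes of all, and DESeq2 called 0 HOX genes and 2 genes (0.00689%). The log2 differences of the HOX genes, Panc1 minus BxPC3, lay between -0.33 and 0.59, and the smallest p was that of HOXB13 (log2 difference 0.31, p = 0.083 and adjusted p = 1.00 by edgeR). With SMAD4 state as a covariate again 0 HOX genes were called, the smallest p being that of HOXC13 (log2 difference 0.34, p = 0.069 and adjusted p = 0.691 by edgeR), and DESeq2 called 0 HOX genes and 3 genes (0.0103%).

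Within the 12 SMAD4-low libraries, 0 of 27 HOX genes were called by edgeR, and 2 had an unadjusted p under 0.05 (7.41%, against 11.4% of all 16124 genes), HOXB7 (log2 difference 0.37, p = 0.0031, adjusted p = 0.404) and HOXB13 (0.50, p = 0.032, adjusted p = 0.416). Both were higher in libraries labelled Panc1, and DESeq2 called 40 genes (0.243%), none of them HOX. Within the 14 SMAD4-positive libraries 0 of 25 were called, and HOXC13 had the smallest p (log2 difference 0.45, p = 0.056, adjusted p = 0.982), while DESeq2 called 2 genes (0.00766%) and no HOX gene. These p-values measure the spread between clones, each with 1 library.

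Within a set, clones differed in HOX levels by more than counting error. This was read from members with a median of at least 5 TPM. Their CV over libraries exceeded the counting CV for 10 of 10 in SMAD4-low and 17 of 17 in SMAD4-positive libraries. The factors were 3.19 (HOXC9) to 12.6 (HOXA3) and 2.55 (HOXC8) to 22.2 (HOXB9). The share of all genes that exceed it was not computed, so these counts do not set HOX genes apart. The median CV of these members was 34.5% in SMAD4-low and 22.3% in SMAD4-positive libraries. Over all genes with such a median it was 19.8% (10959 genes) and 19.05% (10721 genes). Counting CVs leave out errors in assigning reads to transcripts, and differences of culture and library preparation were not separated from differences between clones.

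In SMAD4-positive libraries the members of HOXB varied together. Over the 14 libraries, Spearman's rho of their levels was above 0 for 28 of 28 pairs, with a median of 0.633. The median was 0.393 over 21 pairs within HOXC, 0.473 over all 50 pairs within a cluster and 0.0593 over 86 pairs between clusters. Single pairs between clusters ran from -0.543 to 0.609. Without the 2 libraries farthest from the median of the summed level, HOXB kept 0.503 and pairs between clusters -0.0385. Neighbouring genes of a chromosome other than HOX had a median of 0.248 (10122 pairs), and all pairs of genes 0.0330. All pairs share the same libraries and the scaling of TPM, and so are not independent.

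Libraries 13 and 22 mark the ends of this variation. Library 13, labelled Panc1, had the highest HOXB sum, 855 TPM, and library 22, labelled BxPC3, the lowest, 349 TPM. Library 22 was the lowest SMAD4-positive library for HOXB2, HOXB4, HOXB5, HOXB6, HOXB8 and HOXB9. Their HOXC sums were nearer, at 377 and 297 TPM. HOXC sums were led by library 8, at 439 TPM, which also had the highest HOXC4, HOXC6, HOXC10 and HOXC13. The order of these clones by HOXB thus differed from their order by HOXC. Between neighbours, rho was highest for HOXB8 with HOXB9 (0.829) and lowest for HOXC6 with HOXC8 (0.191) among the pairs of HOXB and HOXC.

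In SMAD4-low libraries the pattern was less even. The median rho was 0.469 over 14 pairs within a cluster and 0.119 over 31 pairs between clusters, with 0.643 over the 3 pairs of HOXA and 0.290 in HOXB. Neighbouring genes other than HOX had 0.224 and all pairs of genes 0.112, close to HOXB and to the pairs between clusters. Without the 2 libraries farthest in summed level, HOXB fell to 0.0121, pairs between clusters stood at 0.200 and HOXA had 0.661. The libraries left out, 4 and 24, had the highest HOXB sums of the set, 256 and 219 TPM. Leaving them out narrowed the range of HOXB by selection, so it cannot compare how firm HOXB and HOXA were. HOXB5 with HOXB6 had 0.902, yet HOXB7 with HOXB9 had -0.0280. Library 4 showed the difference between clusters most plainly: it had the highest HOXB sum, 256 TPM, with low HOXA (39.0 TPM) and HOXC (20.4 TPM). Library 3 had the highest HOXA and HOXC sums, 101 and 33.4 TPM, at a HOXB sum of 173 TPM.

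**Figure D5:**
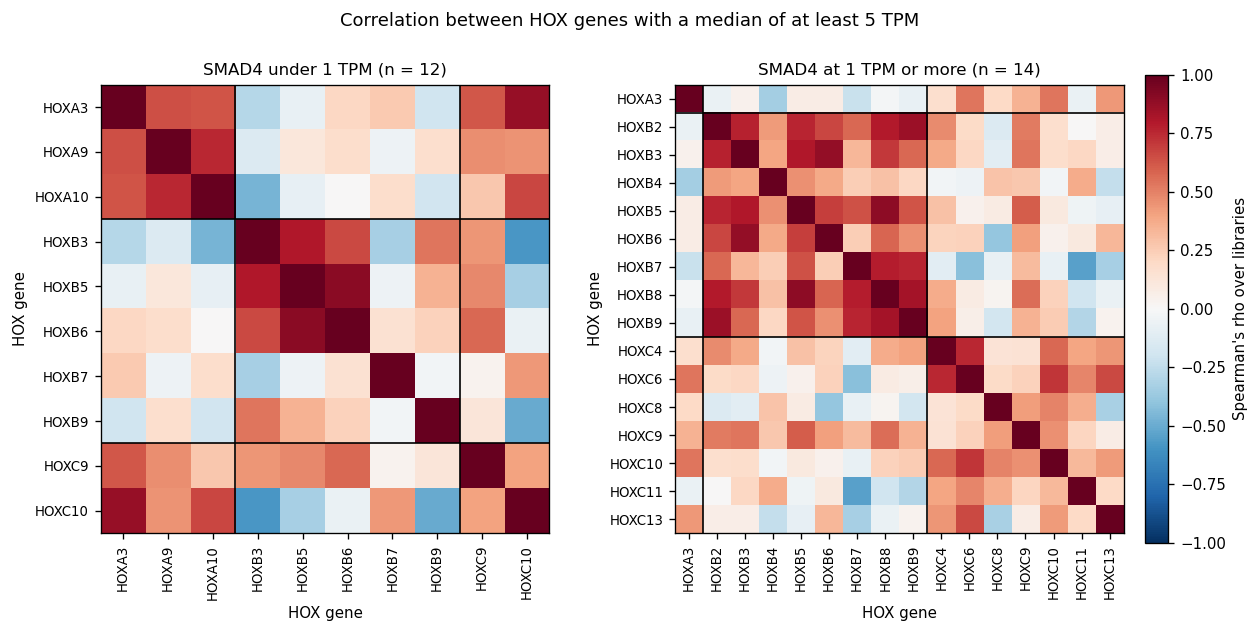
Color gives Spearman's rho between HOX genes with a median of at least 5 TPM, over the 12 SMAD4-low libraries (left, 10 genes) and the 14 SMAD4-positive libraries (right, 16 genes), and black lines part the clusters. The HOXB block at right is red throughout, with a median of 0.633, and blocks between clusters at right hold both red and blue.

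Of 11 genes for TALE proteins, the class that holds the PBX and MEIS partners of HOX proteins, 10 reached 1 TPM. Among these 10, 4 were higher in every SMAD4-low library, 4 in every SMAD4-positive library and 2 overlapped. Of all genes, 13.2% and 13.3% did so in the same directions. PBX3 had 5.17, 10.46 and 17.7 TPM in SMAD4-low and 27.5, 35.2 and 58.9 TPM in SMAD4-positive libraries, and PBX4 had 0.970, 1.61 and 2.80 TPM against 3.51, 6.23 and 7.66 TPM. TGIF2, which encodes a repressor of TGF-beta signaling, had 21.3, 32.5 and 45.2 TPM against 8.26, 11.99 and 17.8 TPM. Of the other TALE genes, PBX2 and MEIS1 were higher in SMAD4-low and MEIS3 and TGIF1 in SMAD4-positive libraries. TGIF1 thus went the opposite way to TGIF2, also without overlap.

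Among 20 Polycomb genes, 3 were higher in every SMAD4-low library, 2 in every SMAD4-positive library and 15 overlapped. The 5 of 20 that did not overlap were close to the 26.6% of all genes. JARID2, which recruits Polycomb repressive complex 2, had 10.7, 12.1 and 15.4 TPM against 1.14, 2.45 and 5.44 TPM. SUZ12 and EED, core subunits of that complex, went in opposite directions, SUZ12 with 28.6, 38.3 and 49.0 TPM against 57.7, 76.9 and 90.3 TPM and EED with 42.9, 51.0 and 60.3 TPM against 19.2, 33.0 and 40.2 TPM. CBX6, a chromodomain subunit of complex 1, had 5.28, 8.31 and 12.7 TPM against 24.5, 30.9 and 53.0 TPM. EZH2, the methyltransferase, overlapped.

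Of 15 genes for trithorax and H3K79 methylation proteins, 2 were higher in every SMAD4-low library, a share close to the 13.2% of all genes, and 13 overlapped, KMT2A among these. WDR5, a shared subunit of the H3K4 methyltransferases, had 39.6, 61.5 and 75.2 TPM against 22.3, 26.8 and 31.6 TPM, and AFF1, of the elongation complexes, 15.4, 18.2 and 27.9 TPM against 7.56, 10.2 and 12.9 TPM. Of 17 genes of the retinoid pathway and CDX factors, 15 reached 1 TPM, 3 of which were higher in every SMAD4-low library, near the 13.2% of all genes. RXRA, the partner of the retinoic acid receptors, had 42.6, 78.5 and 92.7 TPM against 8.47, 12.5 and 20.1 TPM. RARB and ALDH1A2 were the others, at low levels. RARB had 0.349 to 2.59 TPM against 0 to 0.0953 TPM, and ALDH1A2 had 1.67 to 7.31 TPM against 0 to 0.917 TPM.

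Genes that flank the clusters were taken as a further list. Of 14 such genes, 11 reached 1 TPM, 2 were higher in every SMAD4-positive library, near the 13.3% of all genes, and 9 overlapped. SKAP2, on the HOXA side, had 15.2, 21.9 and 25.7 TPM against 27.6, 43.1 and 73.4 TPM. ATF2, on the HOXD side, had 17.5, 21.6 and 23.9 TPM against 30.8, 34.9 and 45.1 TPM. LNPK and MTX2, which lie nearer to HOXD than ATF2, overlapped. HIBADH and CBX5 overlapped as well, and EVX1 and EVX2 stayed under 0.1 TPM. Of 6 ParaHox genes, relatives of HOX outside the 4 clusters, PDX1 and CDX2 reached 1 TPM and overlapped, and the other 4 did not reach it.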

How the data were processed

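Polyadenylated, strand-specific libraries of 26 SCDCLs were sequenced from both ends. The authors assigned reads with kallisto 0.46.1 to Ensembl release 103 of GRCh38; its strand setting is not given in the sources used here. The authors deposited TPM (scaled by length and library total) and estimated counts scaled from TPM by length per gene. The 30 repeated estimates of the counts per library, not scaled by length, were used for an alternative, and 26 columns of effective lengths were not used.

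Of 41078 genes, 36315 were matched to GENCODE 44. Ranges were compared among genes reaching 1 TPM, and detection needed a median of 1 TPM. The labels were compared with edgeR 4.0.16 (TMM, filterByExpr, quasi-likelihood, Benjamini-Hochberg) on rounded estimated counts in R 4.3.3, with DESeq2 1.42.0 and limma 3.58.1 as alternatives, after a test on simulated data. Other steps used Python 3.11.15, numpy 2.4.6, pandas 2.3.3 and matplotlib 3.10.9. A pseudocount of 1 was added before log2.

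Values were given for each HOX gene with a median of at least 5 TPM in either SMAD4 set, or with ranges that did not overlap and a median of at least 1 TPM in the higher set, and others by range, count or extreme. Of each further list, up to 4 genes with the largest ratio of medians were named in full among those that did not overlap and had a median of at least 5 TPM, and other names stand without full values. Members and lists were chosen with earlier results of these data known. A list of 18 HOX noncoding genes had 0 rows in the table used here. The closest pair of libraries had Pearson's r = 0.981, and 0 of 325 pairs held the same TPM for every gene. Depth limits genes under 1 TPM. A HOX gene and a cofactor gene that count in the totals are not reported here.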

Additional observations from a re-analysis of the deposited data

How the results depend on the processing

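The 4 HOX genes lower and the 15 higher in SMAD4-positive libraries stayed the same genes with TMM-normalized CPM and with TPM divided by size factors. The median difference of all genes between the sets was exactly 0 in TPM and in both scalings, and so cannot show a small shift. A highest TPM of at least 5 left 2 and 14, without HOXA7, HOXD11 and HOXC5, and no minimum gave 4 and 16, adding HOXC12. With the lowest and highest of 30 repeated estimates per library, in counts per library total not scaled by length, there were 3 and 14, without HOXA7 and HOXC5. With any 1 library left out the counts were 4 to 5 and 15 to 16, where library 4 alone decided HOXA3 and HOXB9. Among libraries labelled BxPC3 alone, an alternative chosen after seeing the data, there were 5 and 16, and among those labelled Panc1 4 and 15. HOX genes detected in SMAD4-low libraries fell from 19 to 10 at a median of 5 TPM, and leaving out a library gave 18 to 20 there and 22 to 22 in SMAD4-positive ones. In place of TPM, estimated counts, which weigh long transcripts more, gave HOXC 12.5% in SMAD4-low libraries, and 41.0% for HOXC and 55.7% for HOXB in SMAD4-positive ones. All 21 HOX genes named by the rule kept the direction of their difference with CPM, size factors and a pseudocount of 0.1, the last also chosen later. Between labels, edgeR called 0 genes in each fit, leaving out each library included, and DESeq2 called 2, with SMAD4 state as covariate 3, within SMAD4-low libraries 40 and within SMAD4-positive ones 2, none of them HOX. These DESeq2 fits within sets and with the covariate were chosen after seeing the data. The cause of these differences between tools was not tested. No paired analysis was possible because the labelled groups share no replicate number.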
